A study of Homo sapiens with 12 samples.

Results

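The 9 genes HLA-B, HLA-C, HLA-E, B2M, TAP1, TAP2, PSMB8, PSMB9 and PSMB10 encode the parts of the MHC class I pathway that make, carry and display peptides on the cell surface. Their rows were found by gene symbol in a table of 53361 rows. The 9 symbols stood on 55 rows, because 7 of them are listed several times under different Ensembl gene identifiers, and for each symbol the row with the highest mean over all libraries was used, giving 9 rows. RNA was sequenced in 12 libraries from hTERT-RPE1, a human cell line derived from retinal pigment epithelium and kept dividing by added telomerase. There were 3 libraries each of cells given 0.5 µM reversine for 24 h, washed and collected 48 h afterwards, of cells given 0.1 µM bafilomycin A1 (BafA1) for 6 h, of cells given 1 µM MG132 for 24 h, and of untreated control cells, for which no vehicle is named. All groups share the same line and its telomerase, and the exposure times differ between the treatments. Reversine inhibits the spindle checkpoint kinase MPS1, BafA1 blocks the proton pump of lysosomes, and MG132 inhibits the proteasome.

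In class I presentation, proteasomes cut cytosolic proteins into peptides, the TAP1-TAP2 transporter moves the peptides into the endoplasmic reticulum, and the peptides are loaded there onto a heavy chain bound to β2-microglobulin. PSMB8, PSMB9 and PSMB10 are the catalytic subunits of the immunoproteasome and replace the constitutive subunits PSMB5, PSMB6 and PSMB7. Interferons raise most of these genes through IRF1 and the class I transactivator NLRC5, and NF-κB binds upstream of several of them. In epithelial cells the pathway is normally active at a low level and is raised by interferon.

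The promoters of 4 genes whose differences are described below are shown because class I and immunoproteasome genes are known to be raised through interferon-response elements near their start. Sequences are from RefSeq (GRCh38.p14), from 250 bases before to 50 bases after the start of the gene, written 5′ to 3′ on the strand of the gene. Capitals mark matches to AANNGAAA, the core bound by interferon regulatory factors (IRFs), searched on both strands.
HLA-B (chr6:31357130-31357429, minus strand): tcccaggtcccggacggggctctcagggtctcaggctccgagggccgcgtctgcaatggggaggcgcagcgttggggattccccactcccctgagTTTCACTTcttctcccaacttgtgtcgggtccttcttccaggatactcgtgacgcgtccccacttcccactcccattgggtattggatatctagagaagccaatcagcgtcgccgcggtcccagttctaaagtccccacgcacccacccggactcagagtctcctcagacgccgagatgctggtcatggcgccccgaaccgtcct
TAP1 (chr6:32853655-32853954, minus strand): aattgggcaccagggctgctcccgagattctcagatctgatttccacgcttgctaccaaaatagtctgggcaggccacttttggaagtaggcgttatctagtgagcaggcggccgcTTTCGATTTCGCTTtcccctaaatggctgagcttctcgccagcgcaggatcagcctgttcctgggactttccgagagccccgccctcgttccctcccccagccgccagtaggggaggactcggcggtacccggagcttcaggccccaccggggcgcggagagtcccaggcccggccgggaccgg
PSMB8 (chr6:32843998-32844297, minus strand): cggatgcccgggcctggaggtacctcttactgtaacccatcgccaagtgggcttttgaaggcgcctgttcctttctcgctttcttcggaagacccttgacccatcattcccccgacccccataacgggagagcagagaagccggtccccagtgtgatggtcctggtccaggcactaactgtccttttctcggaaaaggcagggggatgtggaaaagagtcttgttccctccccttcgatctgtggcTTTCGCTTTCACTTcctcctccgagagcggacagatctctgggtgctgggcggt
PSMB10 (chr16:67936801-67937100, minus strand): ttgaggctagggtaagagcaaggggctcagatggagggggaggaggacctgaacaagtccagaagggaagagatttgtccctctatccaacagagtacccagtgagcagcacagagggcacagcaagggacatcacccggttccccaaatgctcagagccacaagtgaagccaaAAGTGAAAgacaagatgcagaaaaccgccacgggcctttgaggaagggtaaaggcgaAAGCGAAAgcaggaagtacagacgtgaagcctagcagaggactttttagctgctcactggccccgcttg
Of the 9 genes, 8 matched the RefSeq promoter table, with 10 windows, and HLA-E had no entry. The IRF core was found in 7 of these 10 windows, 1 for each of 7 genes, and in 22.8% of 35116 promoters of the same length. The match of HLA-B began 155 bases before the start, and that of HLA-C 151 bases before it. TAP1 held 2 overlapping matches, 134 and 128 bases before its start, and PSMB10 held 2 that did not overlap, 76 and 19 bases before its start. In PSMB8 2 overlapping matches lay at the start: 1 began 4 bases before it and ran across it, and the other began 2 bases after it. TAP1 and PSMB8 each have a second window, which held no match. The PSMB9 window held no match. It lies on the plus strand and overlaps the far end of the minus-strand TAP1 window (chr6:32853942-32854241 for PSMB9), so the 2 genes are transcribed away from each other. A match describes the letters of the window and not binding in these cells.

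The deposited values name no unit and were taken as FPKM, fragments scaled to transcript length and to library size. On that scale levels can be set side by side between genes, except where the reads of a gene are divided over several rows. Differences below are on the log2(FPKM + 1) scale, tested with limma over 30712 rows, and a gene was called when its adjusted p (Benjamini-Hochberg over all of these rows) was under 0.05. Depth is not given in the files; relative to the deepest library it was estimated at 0.587 to 1 from the lowest values per length, so no counting interval can be given. In 4 libraries (reversine 1, BafA1 3, MG132 2 and MG132 3) values fell as the GC content of the transcript rose, by 0.077 to 0.453 on the log2 scale per 10 percentage points, while in the other 8 they rose by 0.096 to 0.203. In BafA1 library 2 the 10 highest rows held 42.9% of all FPKM, against 9.3% to 23.2% in the other libraries. The 10 retinal pigment epithelium markers summed to 1304 to 1578 FPKM in reversine, 1153 to 1278 in BafA1, 479 to 735 in MG132 and 1242 to 1404 in control libraries, mostly from the epithelial keratins KRT8 and KRT18. MITF and OTX2, transcription factors of this tissue, averaged 15.8 and 14.1 FPKM in control, while RPE65, the visual-cycle enzyme that defines the mature tissue, averaged 0.0433 FPKM there. Markers of leukocytes and professional antigen-presenting cells, which carry much class I, summed over 9 genes to 14.5 to 18.5 FPKM in reversine, 16.5 to 19.9 in BafA1, 16.7 to 29.7 in MG132 and 15.4 to 17.7 in control libraries, and none averaged 10 FPKM. Their part in the results below was not tested.

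MG132-treated cells had less RNA of all 3 immunoproteasome subunits than control cells and more of HLA-B. TAP1 was also called lower in MG132, on 1 of its 8 rows; summed over the rows its difference was -0.23 (limma adjusted p = 0.354). Reversine-treated cells had more HLA-B RNA, and none of the 9 genes was called lower. In BafA1-treated cells none was called. In MG132 1 of the 9 genes was called higher, against 7.14% of all tested rows, and 4 lower, against 7.67%. In reversine 1 was called higher, against 0.801% of all rows, and 0 lower, against 1.29%. In BafA1 0 were called, against 0.264% of all rows in either direction. At an unadjusted p under 0.05 in limma 3 genes were higher and 0 lower in reversine, against 11.8% of all rows in either direction, 0 were higher and 0 lower in BafA1, against 7.12%, and 2 were higher and 4 lower in MG132, against 41%. Groups that did not overlap with control were counted as well: 3 genes lay higher and 0 lower in reversine, against 9.97% and 10.1% of all rows, 0 higher and 2 lower in BafA1, against 15.7% and 7.42%, and 2 higher and 4 lower in MG132, against 20.3% and 13.5%. The median difference of the 9 genes was 0.01 in reversine, -0.21 in BafA1 and -0.32 in MG132, against 0.09, 0.14 and 0.04 over all tested rows. The 3 comparisons share the same control libraries. A further fit left out the 4 libraries whose values fall with GC content, a set chosen because of that trend. In it 1 gene was called higher and 0 lower in reversine, and 0 were called in BafA1. These counts were not set against the shares of all rows called in that fit, so whether they exceed them was not tested. With 1 MG132 library left, the MG132 differences were 1.11 (HLA-B), -0.67 (TAP1), -2.01 (PSMB8), -1.26 (PSMB9) and -1.75 (PSMB10). In bulk RNA, fewer cells expressing a gene and less of its RNA per cell cannot be told apart.

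**Figure D1:**
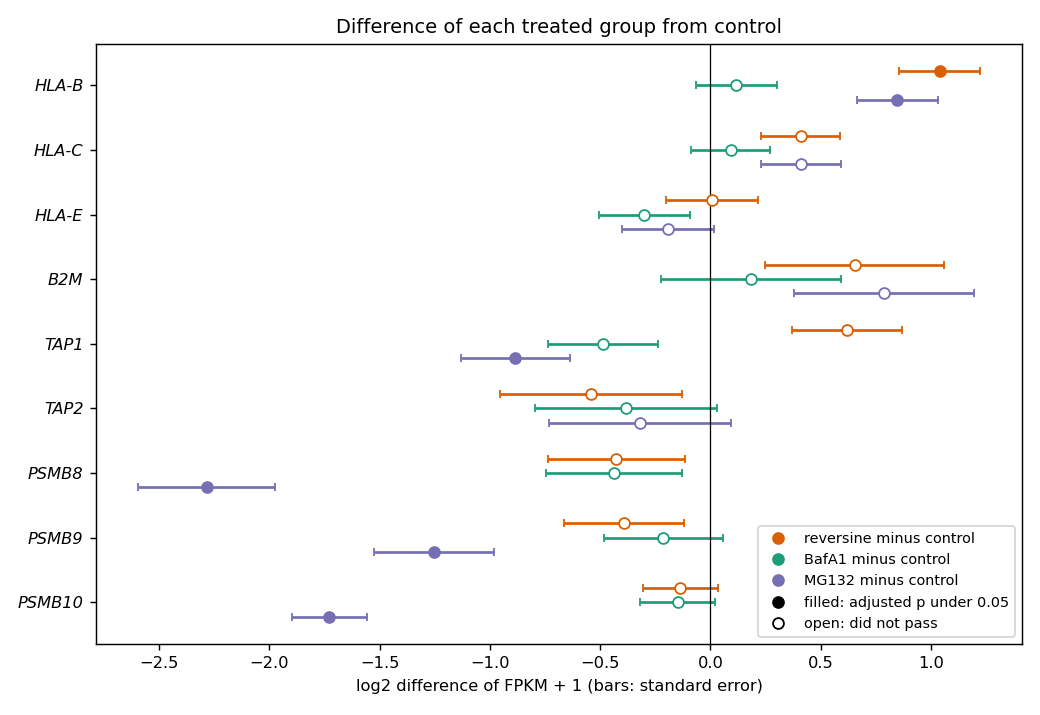
Difference of each treated group from control for the 9 genes, in log2(FPKM + 1) units on the x axis, with bars of 1 standard error (n = 3 libraries per group). Filled points passed an adjusted p of 0.05: HLA-B in reversine and MG132, and TAP1, PSMB8, PSMB9 and PSMB10 in MG132.

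HLA-B encodes a classical class I heavy chain that presents peptides to cytotoxic T cells. It stood at 51.4, 70.4 and 72.4 FPKM in the 3 reversine libraries, 34.9, 29.5 and 35.8 in BafA1, 67.4, 54.1 and 47.7 in MG132 and 27.1, 31.5 and 33.6 in control. Every reversine and every MG132 library lay above every control library, while in BafA1 2 libraries lay above every control and 1 among the controls. Means were 64.7 ± 11.6 FPKM in reversine, 33.4 ± 3.40 in BafA1, 56.4 ± 10.0 in MG132 and 30.7 ± 3.31 in control (SD, n = 3 each). HLA-B rose 2.11-fold in reversine (log2 difference 1.04, SE 0.18, limma adjusted p = 0.0207) and 1.84-fold in MG132 (0.85, SE 0.18, limma adjusted p = 0.0143). The BafA1 difference was 0.12 (limma adjusted p = 0.817). In the order of the levels, reversine and MG132 overlapped (difference 0.19, limma adjusted p = 0.430) and so did BafA1 and control. The reversine call was lost when reversine 2 (limma adjusted p = 0.0902), reversine 3 (0.0761), control 1 (0.113), control 2 (0.0696) or control 3 (0.0798) was left out or when only the 2 groups were fitted (0.196), and the MG132 call when MG132 2 (0.0575) or control 1 (0.0669) was left out.

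A symbol listed several times shares reads between near-identical copies of the HLA region, so the level of one row depends on how the reads were divided. HLA-B had 6 rows, of which a second one (ENSG00000234745) was as abundant as the first (ENSG00000223532). That second row stood at 37.7, 51.2 and 46.9 FPKM in reversine, 28.6, 34.9 and 34.4 in BafA1, 52.2, 52.0 and 49.8 in MG132 and 33.2, 31.7 and 34.9 in control libraries. Reversine and MG132 again did not overlap with control. It was called higher in MG132 (0.61, limma adjusted p = 0.0191) and not in reversine (0.42, limma adjusted p = 0.230). Summed over its 6 rows, HLA-B reached 118 ± 19.0 FPKM in reversine, 74.5 ± 3.31 in BafA1, 116 ± 11.0 in MG132 and 70.0 ± 4.18 in control, a difference of 0.73 in reversine (limma adjusted p = 0.0248) and 0.72 in MG132 (limma adjusted p = 0.00695).

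HLA-C, another classical heavy chain and also a ligand of natural killer cell receptors, was more abundant than HLA-B. It stood at 110, 156 and 180 FPKM in reversine, 124, 118 and 109 in BafA1, 173, 132 and 136 in MG132 and 119, 106 and 104 in control. All MG132 libraries lay above all control libraries, while reversine library 1 lay within the control range. Means were 149 ± 35.3, 117 ± 7.92, 147 ± 22.5 and 110 ± 8.31 FPKM in reversine, BafA1, MG132 and control. The differences of 0.41 in reversine (limma adjusted p = 0.414), 0.09 in BafA1 (0.882) and 0.41 in MG132 (0.118) did not pass. HLA-C transcripts are rich in GC (61.1%, against a median of 48.2% over the tested rows), and after a correction of every library for GC content and transcript length the differences were 0.54 in reversine (limma adjusted p = 0.00384) and 0.80 in MG132 (0.000123), both called. The reversine call was made in this 1 of 16 alternatives only, and was lost when rows were summed as well. The MG132 call was made in 2 of the 16, with and without the sum of rows. HLA-C had 7 rows, all above 0 in reversine and in MG132, but the size depended on the row. The second most abundant row averaged 104 FPKM over all libraries, against 131 for the row used. It differed by 0.06 in reversine (limma adjusted p = 0.825) and was the 1 row called in MG132 (0.49, 0.0467). Summed over 7 rows, HLA-C averaged 259 ± 49.1 FPKM in reversine, 212 ± 2.20 in BafA1, 292 ± 24.1 in MG132 and 214 ± 11.8 in control.

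HLA-E is the non-classical heavy chain that displays signal peptides of other class I molecules to natural killer cells. Its levels were 18.1, 21.1 and 20.7 FPKM in reversine, 14.9, 14.8 and 18.3 in BafA1, 21.8, 18.9 and 12.4 in MG132 and 19.9, 20.2 and 19.4 in control. The BafA1 libraries lay below the control libraries, and the other groups overlapped with control. No difference passed (0.01 in reversine, limma adjusted p = 0.985; -0.30 in BafA1, 0.733; -0.19 in MG132, 0.484). The other 6 rows of HLA-E all lay above 0 in each treatment, so the direction in BafA1 and MG132 rested on the row chosen: summed over 7 rows, HLA-E averaged 79.6 ± 16.1 FPKM in reversine, 66.6 ± 3.17 in BafA1, 75.8 ± 10.2 in MG132 and 63.4 ± 0.632 in control.

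B2M encodes β2-microglobulin, the light chain shared by all class I molecules, and was the most abundant of the 9 genes in every group. It stood at 797, 555 and 582 FPKM in reversine, 377, 368 and 696 in BafA1, 349, 981 and 989 in MG132 and 341, 444 and 435 in control. All reversine libraries lay above all controls, and MG132 was split between 1 library at the control level and 2 at more than double it. Means were 645 ± 133 FPKM in reversine, 481 ± 187 in BafA1, 773 ± 367 in MG132 and 407 ± 56.5 in control. No difference passed (0.65 in reversine, limma adjusted p = 0.558; 0.19 in BafA1, 0.911; 0.79 in MG132, 0.179). Without MG132 1 the MG132 difference was 1.28 (limma adjusted p = 0.00702). That fit called 13046 of 30712 rows in MG132, against 4549 in the main fit. It kept MG132 2 and MG132 3, whose values fell with GC content.

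The transcript of B2M is poor in GC (41.2%), unlike those of the other 8 genes (50.7% to 62.0%), and its 4 highest levels were in the 4 libraries whose values fell with GC content. Without those 4 libraries the B2M difference was 0.49 in reversine (limma adjusted p = 0.149) and -0.11 in BafA1 (0.698). In MG132 it was -0.21, with 1 MG132 library left and so given without a test. With the correction for GC content and length the MG132 difference was 0.42 (0.237).

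**Figure D2:**
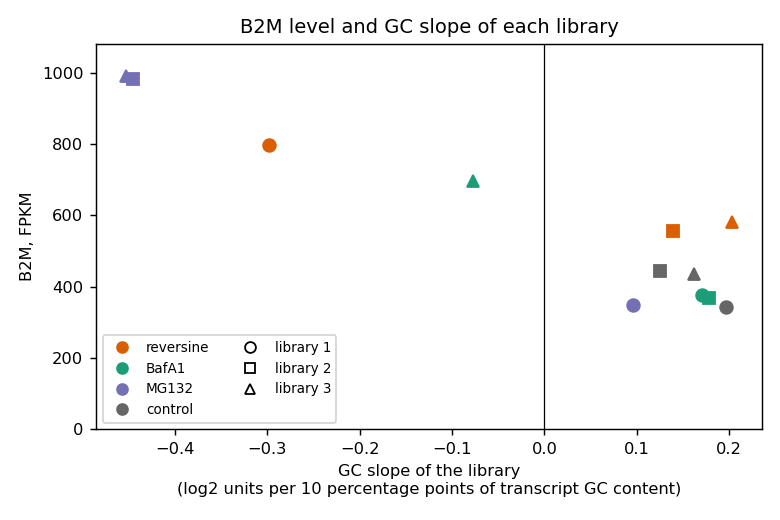
B2M level in FPKM (y axis) against the GC slope of each library (x axis, log2 units per 10 percentage points of transcript GC content), 1 point per library. The 4 libraries with a negative slope hold B2M at 696 to 989 FPKM and the 8 with a positive slope at 341 to 582 FPKM.

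TAP1 and TAP2 pair to form the peptide transporter. TAP1 stood at 7.89, 13.0 and 8.78 FPKM in reversine, 4.67, 4.11 and 3.21 in BafA1, 3.36, 2.24 and 2.77 in MG132 and 4.92, 6.29 and 6.76 in control. No treated group overlapped with control: reversine lay above it and BafA1 and MG132 below. Means were 9.87 ± 2.70 FPKM in reversine, 3.997 ± 0.737 in BafA1, 2.79 ± 0.560 in MG132 and 5.99 ± 0.956 in control. TAP1 fell in MG132 (-0.88, SE 0.25, limma adjusted p = 0.0431); the differences of 0.62 in reversine (0.352) and -0.49 in BafA1 (0.562) did not pass.

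The MG132 call of TAP1 was lost under 11 of 16 alternatives and depended on the row. The row used was the most abundant of 8, and the other 7 stood between 1.27 and 1.69 FPKM on average over all libraries. Those 7 rows lay slightly above control in MG132 (the highest by 0.17), and none was called. Summed over its 8 rows, TAP1 stood at 20.04, 27.45 and 26.22 FPKM in reversine, 14.8, 15.0 and 14.6 in BafA1, 14.0, 12.3 and 11.2 in MG132 and 15.5, 14.6 and 14.2 in control. On these sums reversine lay above control in every library (0.68, limma adjusted p = 0.0823), BafA1 overlapped with control (0.001, 0.999) and MG132 lay below it (-0.23, limma adjusted p = 0.354). All 8 rows of TAP1 lay above 0 in reversine, by 0.40 to 0.62, and none was called. Over the 16 alternatives TAP1 was called higher in reversine in 1. That was the sum of rows with the GC correction, chosen after seeing the data (limma adjusted p = 0.00809).

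TAP2 stood at 4.21, 11.0 and 12.6 FPKM in reversine, 11.0, 11.0 and 7.15 in BafA1, 7.82, 16.2 and 7.92 in MG132 and 10.4, 14.3 and 14.0 in control. Every treated group overlapped with control. The differences were -0.54 in reversine (limma adjusted p = 0.667), -0.38 in BafA1 (0.733) and -0.32 in MG132 (0.568). In reversine all 8 tested rows of TAP2 lay below 0 and all 8 rows of TAP1 above it, but rows that share reads are not separate observations. Without the 4 GC-falling libraries, reversine 1 among them, the TAP2 difference in reversine was -0.11 (limma adjusted p = 0.759). Reversine library 1 gave the lowest TAP2 level of all libraries and also the lowest levels of its group for HLA-B, HLA-C, HLA-E, TAP1, PSMB8, PSMB9 and PSMB10, but the highest for B2M.

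**Figure D3:**
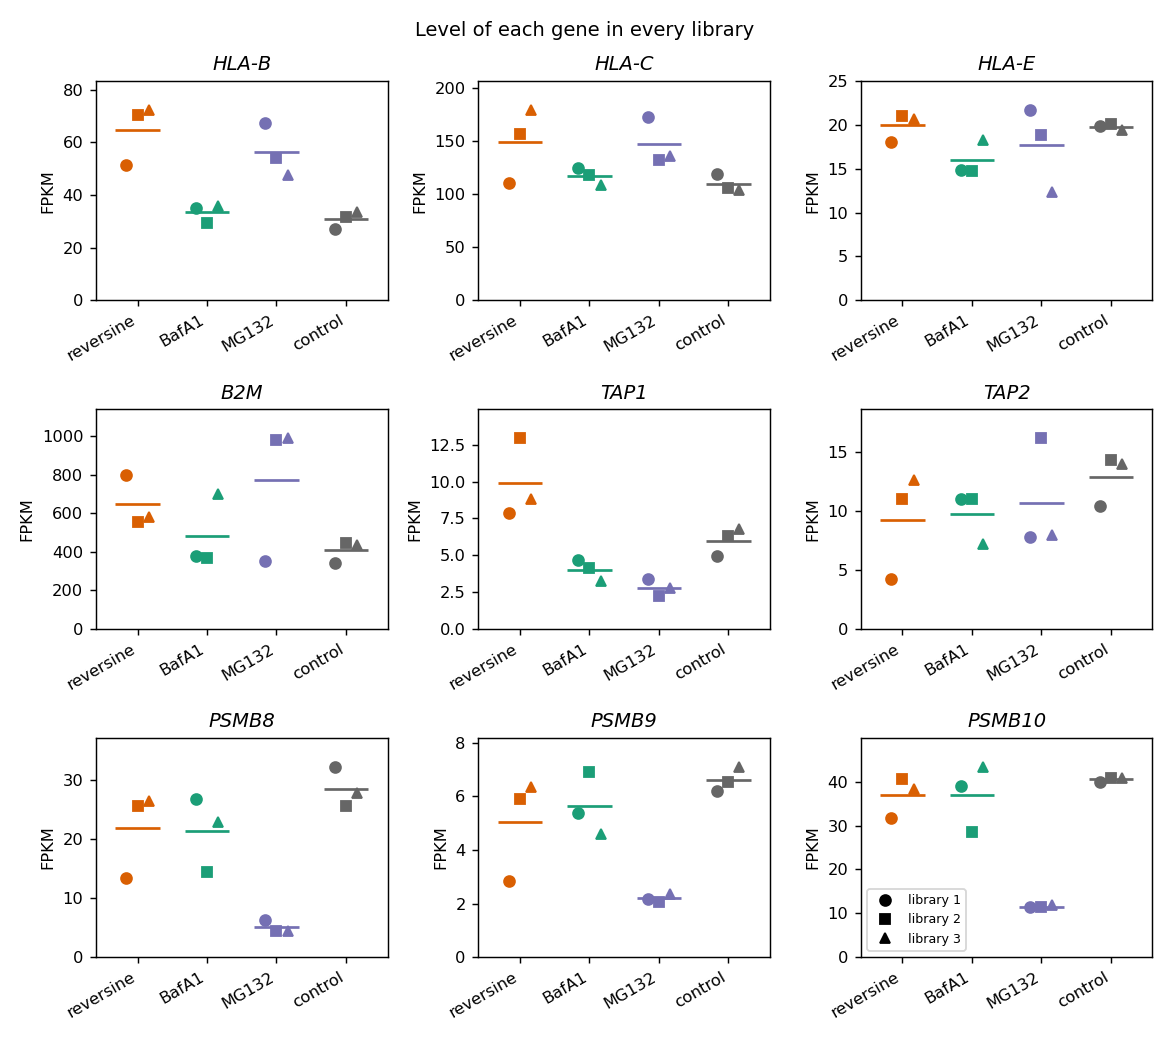
FPKM of each of the 9 genes in the 12 libraries, by group, with 1 marker per library and a line at the group mean. The MG132 libraries lie below all other libraries for PSMB8, PSMB9 and PSMB10, and the reversine and MG132 libraries lie above the control libraries for HLA-B.

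The immunoproteasome subunits had the largest differences of the 9 genes, all in MG132. PSMB8, the chymotrypsin-like subunit also called β5i, stood at 13.3, 25.6 and 26.4 FPKM in reversine, 26.8, 14.4 and 22.9 in BafA1, 6.29, 4.48 and 4.48 in MG132 and 32.2, 25.5 and 27.8 in control. The MG132 libraries lay below every other library. PSMB8 averaged 5.08 ± 1.05 FPKM in MG132 and 28.5 ± 3.40 in control (SD, n = 3 each) and fell by 2.29 on the log2 scale (SE 0.31, limma adjusted p = 0.00135). The differences of -0.43 in reversine (0.640) and -0.44 in BafA1 (0.733) did not pass, and the means there were 21.8 ± 7.35 and 21.4 ± 6.31 FPKM.

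PSMB9, the subunit β1i that takes the place of the caspase-like PSMB6, stood at 2.84, 5.91 and 6.34 FPKM in reversine, 5.38, 6.92 and 4.58 in BafA1, 2.17, 2.05 and 2.35 in MG132 and 6.20, 6.52 and 7.11 in control. Again all MG132 libraries were the lowest of the 12. PSMB9 fell by 1.25 on the log2 scale in MG132 (SE 0.27, limma adjusted p = 0.0142), with means of 2.19 ± 0.151 FPKM in MG132 and 6.61 ± 0.462 in control. The call was lost without control 2 (limma adjusted p = 0.0511) and when only the 2 groups were fitted (0.0681). The differences were -0.39 in reversine (0.614) and -0.21 in BafA1 (0.749).

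PSMB10, the trypsin-like subunit β2i, is listed on a single row, so no copies divide its reads. It stood at 31.8, 40.7 and 38.4 FPKM in reversine, 39.0, 28.6 and 43.4 in BafA1, 11.4, 11.3 and 11.9 in MG132 and 39.9, 40.9 and 40.7 in control. The MG132 and the control libraries were each tightly grouped and far apart. PSMB10 fell by 1.73 on the log2 scale in MG132 (SE 0.17, limma adjusted p = 0.000231), with means of 11.5 ± 0.324 FPKM in MG132 and 40.5 ± 0.565 in control. The differences were -0.14 in reversine (0.814) and -0.15 in BafA1 (0.733). The PSMB8 and PSMB10 calls in MG132 held under every alternative that kept more than 1 MG132 library. Without the 4 GC-falling libraries 1 MG132 library was left, and the differences were -2.01 (PSMB8) and -1.75 (PSMB10).

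For the subunits with several rows the direction in MG132 was the same on every row, though rows that share reads are not separate observations. All 8 rows of PSMB8 were called lower in MG132, by 0.82 to 2.29 on the log2 scale, and all 8 rows of PSMB9 lay below 0, of which 5 were called. In reversine and in BafA1 3 rows of PSMB9 lay above 0 and 5 below. Summed over rows, PSMB8 averaged 52.2 ± 13.3 FPKM in reversine, 53.9 ± 2.85 in BafA1, 20.7 ± 2.90 in MG132 and 62.4 ± 2.71 in control, and PSMB9 averaged 33.5 ± 11.1, 38.2 ± 6.996, 16.3 ± 0.947 and 39.7 ± 1.19 FPKM in the same order. On these sums the MG132 difference of PSMB8 was -1.55 (limma adjusted p = 0.000837) and that of PSMB9 -1.23 (0.0101). PSMB8, PSMB9, TAP1 and TAP2 lie next to each other in the class II part of the MHC. The antisense gene PSMB8-AS1 overlaps PSMB8 in the annotation, and as no strand setting is given in the sources used here, reads of the 2 cannot be told apart.

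**Figure D4:**
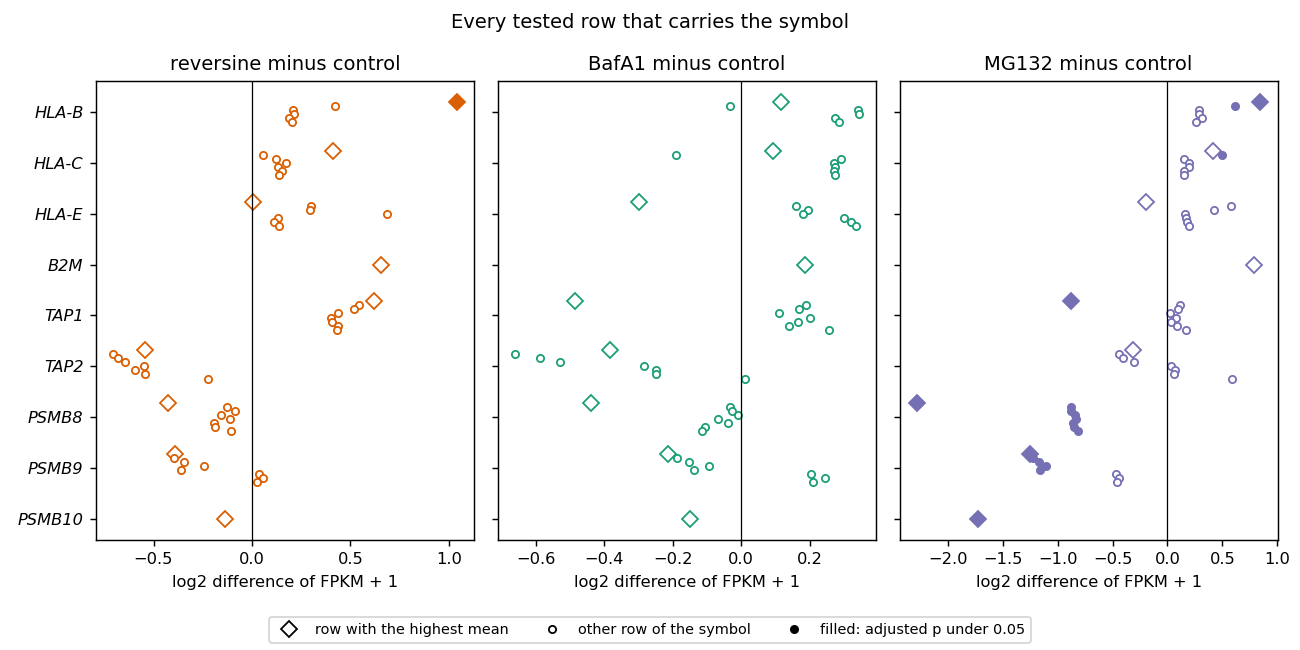
Log2 difference from control (x axis) of every tested row that carries one of the 9 symbols, with reversine, BafA1 and MG132 in separate panels. Diamonds are the rows with the highest mean, circles the other rows, and filled symbols passed an adjusted p of 0.05. All rows of PSMB8, PSMB9 and PSMB10 lie below 0 in MG132, while the TAP1 row with the highest mean lies apart from the other TAP1 rows.

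Each immunoproteasome subunit was set against the constitutive subunit whose place it takes. PSMB8 amounted to 8.50%, 9.91% and 8.60% of PSMB5 in reversine, 11.0%, 6.34% and 10.6% in BafA1, 1.51%, 1.50% and 1.59% in MG132 and 11.8%, 8.94% and 10.8% in control. PSMB9 amounted to 2.42%, 2.77% and 2.75% of PSMB6 in reversine, 2.72%, 3.84% and 2.21% in BafA1, 0.670%, 0.743% and 0.832% in MG132 and 2.69%, 2.79% and 2.83% in control. PSMB10 amounted to 17.7%, 19.4% and 20.5% of PSMB7 in reversine, 25.9%, 19.1% and 20.9% in BafA1, 2.79%, 1.63% and 1.87% in MG132 and 24.8%, 21.2% and 22.8% in control. In these cells the constitutive subunit was the more abundant of each pair in every library, and in MG132 all 3 ratios lay below those of all other libraries. The log2 ratios differed between MG132 and control by -2.56, -1.55 and -3.40. An exact two-sided permutation test gave p = 0.1 for each, the smallest that 3 against 3 libraries allow, and 0.225 after Benjamini-Hochberg adjustment over 9 comparisons. Reversine PSMB10 to PSMB7 ratios also lay below all controls (-0.25, exact permutation p = 0.1). The other reversine and BafA1 ratios overlapped with control, with differences between -0.20 and 0.07 and exact permutation p between 0.2 and 0.8. The ratios above use 1 row per gene, while the reads of PSMB8 and PSMB9 are divided over several rows. With these rows summed the ratios were higher. PSMB8 then amounted to 5.71% to 7.17% of PSMB5 in MG132 and 21.0% to 24.0% in control. PSMB9 amounted to 5.11% to 6.08% of PSMB6 in MG132 and 15.9% to 17.5% in control. The difference for PSMB8 in MG132 was -1.82.

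**Figure D5:**
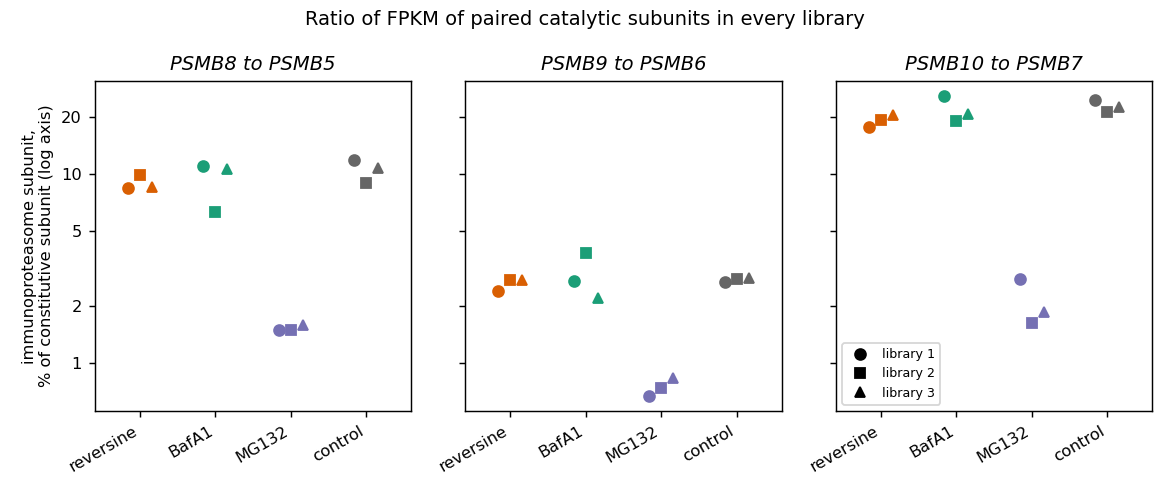
FPKM of each immunoproteasome subunit, on its row with the highest mean, as a percent of its constitutive counterpart (log axis), 1 marker per library, by group. The MG132 libraries lie at 1.50% to 1.59% for PSMB8, 0.670% to 0.832% for PSMB9 and 1.63% to 2.79% for PSMB10, below all other libraries.

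None of the 3 constitutive catalytic subunits was called lower in MG132. PSMB7, the constitutive trypsin-like subunit, averaged 580 ± 153 FPKM in MG132 and 177 ± 16.1 in control and rose (1.67, limma adjusted p = 0.000824). PSMB5 averaged 333 ± 73.8 FPKM in MG132 and 272 ± 14.6 in control (0.27, limma adjusted p = 0.401), and PSMB6 averaged 294 ± 26.0 and 238 ± 11.1 FPKM (0.30, 0.362). Of the 22 constitutive subunits, activators and assembly factors of the 20S core listed, 9 rose and 2 fell in MG132, against 7.14% and 7.67% of all rows, with a median difference of 0.41, against 0.04 over all rows. None was called in reversine or BafA1. At an unadjusted p under 0.05 in limma 0 were higher and 4 lower in reversine, against 11.8% of all rows in either direction. In BafA1 0 were higher and 1 lower, against 7.12%. Among those that rose were the structural subunits PSMB2 (1.00, limma adjusted p = 0.000677), PSMB4 (1.29, 0.000822) and PSMA5 (1.53, 0.00638). The interferon-inducible activator subunits PSME1 (-0.31, limma adjusted p = 0.183) and PSME2 (0.38, 0.455) did not pass in MG132. Named after their values were seen, the assembly chaperone POMP rose (2.10, limma adjusted p = 0.0219), and the assembly chaperones PSMG3 (-1.61, 0.00869) and PSMG4 (-1.86, 0.0172) were those that fell. With the 4 GC-falling libraries left out, 1 MG132 library remained, so differences are given without tests. They were 1.2 for PSMB7, 0.62 for PSMB5, -0.64 for PSME1, 0.90 for POMP and -1.22 for PSMG4.

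Genes that load and trim peptides in the endoplasmic reticulum and cytosol were tested as a list of 12. In MG132 5 rose and 0 fell, against 7.14% and 7.67% of all rows, with a median of 0.52, against 0.04 over all rows. None was called in reversine or BafA1. At an unadjusted p under 0.05 in limma 1 was higher and 0 lower in reversine, against 11.8% of all rows in either direction. In BafA1 0 were higher and 1 lower, against 7.12%. The lectin chaperones that fold class I heavy chains were among those that rose. Calreticulin (CALR) averaged 1226 ± 181 FPKM in MG132 and 633 ± 31.1 in control (0.94, limma adjusted p = 0.00142), and calnexin (CANX) 780 ± 61.7 and 455 ± 62.6 FPKM (0.78, 0.0014). The cytosolic protease IDE (1.44, limma adjusted p = 0.00067) and the intramembrane protease SPPL3 (0.93, 0.0206) rose as well. Tapasin (TAPBP), which bridges TAP and the heavy chain, stood at 30.4, 13.5 and 12.5 FPKM in MG132 and 42.2, 34.5 and 40.4 in control. All its MG132 libraries lay below control, but the difference of -1.12 did not pass (limma adjusted p = 0.0663), and 5 rows carry its symbol. The fit without those 4 libraries kept 1 MG132 library. There the differences were 0.69 (CALR), 0.86 (CANX), 1.17 (IDE) and -0.35 (TAPBP). With the correction for GC content and length the difference of TAPBP was -0.67 and passed (limma adjusted p = 0.0304).

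Transcription factors of class I genes and interferon signalling genes were tested as a list of 27, of which 1 rose and 2 fell in reversine, against 0.801% and 1.29% of all rows, and 3 rose and 6 fell in MG132, against 7.14% and 7.67%. None was called in BafA1 (2 higher and 1 lower at an unadjusted p under 0.05, against 7.12% of all rows). STAT2, part of the factor that answers type I interferon, averaged 72.2 ± 11.6 FPKM in reversine, 50.2 ± 3.50 in BafA1, 139 ± 15.9 in MG132 and 30.2 ± 2.40 in control. It rose in reversine (1.22, limma adjusted p = 0.00313) and in MG132 (2.16, limma adjusted p = 3.28e-05). IRF1, which binds the IRF core and activates class I and immunoproteasome genes, stood at 29.40, 28.98 and 29.38 FPKM in reversine, 18.6, 19.0 and 24.5 in BafA1, 10.4, 12.4 and 11.8 in MG132 and 19.6, 21.9 and 20.1 in control. All reversine libraries lay above control and all MG132 libraries below it. IRF1 fell in MG132 (-0.79, SE 0.15, limma adjusted p = 0.00844), and its reversine difference of 0.49 did not pass (0.187). With the correction for GC content and length its MG132 difference was -0.53 and no longer passed (0.0894).

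NLRC5, the class I transactivator, averaged 15.6 ± 1.86 FPKM in reversine, 14.7 ± 2.12 in BafA1, 16.4 ± 0.830 in MG132 and 16.4 ± 1.31 in control, and it was not called in any treatment. SOCS3, an inhibitor of cytokine signalling, fell in reversine (-1.02, limma adjusted p = 0.0385) and in MG132 (-1.56, 0.00112), and so did the transcription factor BATF3 (-1.36, 0.0176, and -1.33, 0.00516). The CCAAT-binding subunit NFYA, part of the complex that holds NLRC5 on class I promoters, fell in MG132 (-1.78, limma adjusted p = 0.00252). Named after their values were seen, the kinase JAK1 (0.86, limma adjusted p = 0.00531) and the interferon-γ receptor chain IFNGR1 (0.88, 0.0125) rose in MG132. When the 4 libraries were left out, SOCS3 no longer passed in reversine (-0.91, limma adjusted p = 0.0664) and EZH2, a histone methyltransferase, did (-1.14, 0.0387). With 1 MG132 library left, the MG132 differences were -0.92 (IRF1), 0.75 (JAK1) and 0.81 (IFNGR1).

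Other interferon-induced genes were counted beside the class I pathway. Of 14 tested reporters 3 rose and 0 fell in reversine, against 0.801% and 1.29% of all rows, with a median of 0.68, against 0.09. In MG132 1 rose and 1 fell, close to the 7.14% and 7.67% of all rows. None was called in BafA1 (1 higher and 0 lower at an unadjusted p under 0.05, against 7.12% of all rows). IFI6, a mitochondrial interferon-induced protein, averaged 39.9 ± 2.73 FPKM in reversine and 14.8 ± 1.55 in control (1.37, limma adjusted p = 0.00459), and in MG132 it averaged 9.41 ± 1.83 FPKM and fell (-0.61, 0.0476). IFIT2, an antiviral RNA-binding protein, rose to 3.95 ± 1.78 FPKM in reversine, against 0.810 ± 0.105 in control (1.40, limma adjusted p = 0.0317), and the GTPase GBP2 to 2.26 ± 0.134, against 0.777 ± 0.317 (0.89, 0.00894). IFI44 rose in MG132 to 33.4 ± 10.4 FPKM, against 5.42 ± 1.17 in control (2.39, limma adjusted p = 0.000573). Of 8 interferon ligands 1, IFNE, reached the level needed for a test, and it was not called in any treatment (higher in MG132 at an unadjusted p under 0.05, and called there with the GC correction, 0.66, limma adjusted p = 0.0473). Of the 10 other class I heavy chains and class I-like genes 5 were tested and none was called. At an unadjusted p under 0.05 in limma 2 were higher in reversine, 2 in BafA1 and 1 in MG132. Over all rows 11.8%, 7.12% and 41% passed that level in either direction. Of the 5, FCGRT, the neonatal Fc receptor, passed in reversine without the 4 libraries (1.05, limma adjusted p = 0.0350). With the GC correction FCGRT passed in reversine (0.94, limma adjusted p = 0.0125) and in MG132 (0.62, 0.0259). MR1 then passed in MG132 (0.68, 0.0343). None of 9 genes of the MHC class II pathway was called in any treatment, and together they summed to 16.6 to 23.6 FPKM in every library. At the unadjusted level 1 was higher in reversine and 1 in BafA1. In MG132 2 were higher and 1 lower, against the same shares of all rows. With the GC correction CTSS was called higher in reversine (0.65, limma adjusted p = 0.0423). HLA-DRB1 (0.32, limma adjusted p = 0.0179) and HLA-DPB1 (0.41, 0.0183) were then called higher in MG132. More of all rows were also called with that correction than in the main fit. Without the 4 libraries GBP2 no longer passed in reversine (0.86, limma adjusted p = 0.0707), and the ubiquitin-like protein ISG15 did (0.98, 0.0451). With 1 MG132 library left, the MG132 differences were -0.92 (IFI6) and -1.02 (ISG15). With the GC correction IFI6 in MG132 was at -0.36 (limma adjusted p = 0.218).

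Markers of this and of other cell types were tested in the same fit. Of 9 tested retinal pigment epithelium markers KRT8 (-1.29, limma adjusted p = 0.00427) and KRT18 (-1.14, 0.000172) fell in MG132, against 7.67% of all rows. In reversine KRT18 lay above control in every library without passing (0.46, limma adjusted p = 0.0686), and it passed without the 4 libraries (0.47, 0.0468). PTPRC, the pan-leukocyte marker CD45, averaged 3.40 FPKM in reversine, 3.91 in BafA1, 8.45 in MG132 and 3.67 in control, and was not called. Of 7 tested leukocyte markers 1 rose in MG132, against 7.14% of all rows. It was the integrin ITGAX (0.70, limma adjusted p = 0.00245), at 2.44 ± 0.301 FPKM in MG132 and 1.12 ± 0.170 in control. Its difference was 0.57 without the 4 libraries, with 1 MG132 library left. With the GC correction 2 of the 7 leukocyte markers were called higher in MG132. The endothelial markers summed to 4.60 to 6.81 FPKM in all libraries and none of the 3 tested was called. With the GC correction, which called more of all rows, 2 of the 3 were called higher in MG132. At an unadjusted p under 0.05 in limma 1 was higher in BafA1 and 1 in MG132, against 7.12% and 41% of all rows. The fibroblast markers summed to 35.4 to 56.9 FPKM in reversine, 38.8 to 43.5 in BafA1, 19.5 to 70.9 in MG132 and 28.4 to 33.4 in control. Of the 3 tested 1, COL1A1, fell in MG132 (-1.07, limma adjusted p = 0.00769), against 7.67% of all rows. DCN stood at 6.68, 59.3 and 21.4 FPKM in MG132, against 5.54, 5.39 and 8.71 in control (1.56, limma adjusted p = 0.100). Its difference was 0.053 without the 4 libraries, with 1 MG132 library left. COL1A1 averaged 40.8 ± 11.1 FPKM in reversine and 21.3 ± 1.00 in control (0.87, limma adjusted p = 0.0730), a difference that passed without the 4 libraries (1.11, 0.0325) and with the GC correction (1.00, 0.00304). Their part in the differences of the class I genes was not tested.

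The treatments were also compared with each other. Between reversine and BafA1 none of the 9 genes was called, against 1.23% of all rows (2 higher and 0 lower at an unadjusted p under 0.05, against 7.47%). HLA-B (0.92, limma adjusted p = 0.0521) and TAP1 (1.10, 0.0895) were higher in every reversine library than in every BafA1 library without passing. Between reversine and MG132 3 genes were higher in reversine, against 3.52% of all rows called higher. These were TAP1 (1.50, limma adjusted p = 0.00727), PSMB8 (1.86, 0.00744) and PSMB10 (1.59, 0.000669); PSMB9 (0.86, 0.0917) did not pass although its groups did not overlap. Without the 4 libraries, with 1 MG132 library left, the differences between reversine and MG132 were 1.42 (TAP1) and 1.89 (PSMB8). Between BafA1 and MG132 PSMB8 (1.85, limma adjusted p = 0.00471), PSMB9 (1.04, 0.0390) and PSMB10 (1.58, 0.000446) were higher in BafA1, against 6.37% of all rows, and HLA-B was lower (-0.73, 0.0338), against 4.49%. Leaving out BafA1 1, BafA1 2, BafA1 3, MG132 2 or MG132 3 ended the calls of HLA-B (limma adjusted p between 0.0588 and 0.121) and of PSMB9 (0.0643 to 0.148). The exposures differ in dose and time, so these values are set side by side.

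The gene whose log2(FPKM + 1) values over the 12 libraries were most like each of the 9 was found among 19351 genes that averaged 5 FPKM or more. Pearson's r was 0.957 for HLA-B with PSAP, 0.939 for HLA-C with CDK20, 0.830 for HLA-E with CAPN2 and 0.986 for B2M with SCP2. It was 0.968 for TAP1 with JAG1 and 0.919 for TAP2 with VEGFB. It was 0.983 for PSMB8 with C11orf83, 0.986 for PSMB9 with DUSP23 and 0.988 for PSMB10 with GPR39. PSAP, the precursor of lysosomal saposins, averaged 2378 FPKM in reversine, 1353 in BafA1, 1981 in MG132 and 1052 in control. The 12 points share 4 groups and the composition of their libraries, and these values are descriptions of a search over many genes.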

How the data were processed

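Per the submitters' processing notes, the aligner was Bowtie 1.0.0, expression was estimated by RSEM 1.2.6, and the genome build was hg19 (GRCh37). The deposited values carry no unit in their header and were taken as FPKM estimated by the authors, because the library totals differ (962891 to 2057717). No strand setting is given in the sources used here. Samples were grouped by the treatment in the labels. Whether the 3 libraries of a treatment were separate cultures is not given in the sources used here, and p-values then reflect library-to-library spread alone, which may be technical.

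From the deposited FPKM, log2(FPKM + 1) was computed and the 30712 of 53361 rows that reached 1 FPKM in 3 or more libraries were fitted with limma 3.58.1 (R 4.3.3, trend method) in one fit of 4 groups, with 8 residual degrees of freedom and a prior of 1.26. All 6 comparisons were adjusted by Benjamini-Hochberg over all tested rows and called at 0.05. Library GC trends used transcript GC content and length from GENCODE v29, found for 89.9% of tested rows, by transcript identifier or else by symbol. The correction was a spline with 5 degrees of freedom. Relative depth came from the 2nd percentile of FPKM times length over 26295 rows with transcripts over 800 nt.

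The 9 genes and all lists were chosen with earlier results of these data known. Genes of a list were named when called against control, at most the 4 with the smallest adjusted p per list, and PSMB5, PSMB6, PSMB7, PSME1, PSME2, NLRC5, IRF1, TAPBP and CALR in any case; 1 further gene of this rule is not reported here. The fit was tested on simulated data. The alternatives are given in the closing section.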

Additional observations from a re-analysis of the deposited data

How the results depend on the processing

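No paired analysis was possible because the libraries carry no replicate numbers in the labels and were numbered in the order of their records. Over 16 alternatives (log2(FPKM + 0.1), no filter, at least 5 FPKM, median-ratio scaling, only the 2 groups compared, limma without the trend, sum of rows, without the 4 GC-falling libraries, GC content and length correction, each library left out, and, chosen after seeing the data, sum of rows with the GC correction) PSMB8 and PSMB10 stayed called in MG132. FPKM without depth limits what low rows such as TAP1 and PSMB9 can show.

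All genes called with only the 2 groups compared numbered 11 (reversine against control), 19 (BafA1 against control), 2751 (MG132 against control), 2 (reversine against BafA1), 256 (reversine against MG132) and 1413 (BafA1 against MG132). The GC correction took its trend from those of the 27614 tested rows with GC content that lay above 1 FPKM in every library. It was then applied to all 27614. With it the genes called numbered 1354 (reversine), 228 (BafA1) and 6830 (MG132) against control and 700 between reversine and BafA1. With summed rows as well they were 1345, 226 and 700 for reversine, BafA1 and reversine against BafA1. Without the 4 libraries they were 44 (BafA1) and 2576 (MG132) against control, 171 (reversine against BafA1), 945 (reversine against MG132) and 1753 (BafA1 against MG132). With 1 library left out they ranged over 247 to 584 (reversine), 19 to 34 (BafA1) and 2435 to 13046 (MG132, highest without MG132 1) against control, 142 to 317 (reversine against BafA1), 965 to 17101 (reversine against MG132) and 1855 to 18445 (BafA1 against MG132).

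Of the 9 genes, those called higher in reversine numbered 0 with only the 2 groups, 2 with the GC correction and 2 with summed rows as well, and 0 to 1 with a library left out. In MG132 2 were higher with the GC correction, 3 with summed rows as well and 0 to 2 with a library left out, and 2 were lower with only the 2 groups and 2 to 4 with a library left out. Over all rows, those called in MG132 numbered 4549 in the main fit and more with the GC correction, as given above. Between reversine and BafA1 those higher in reversine numbered 1 with log2(FPKM + 0.1), 1 with at least 5 FPKM, 2 without the trend, 3 with the GC correction, 2 with summed rows as well and 0 to 1 with a library left out. Between reversine and MG132 1 was higher with only the 2 groups and 3 to 4 with a library left out. There 1 was lower with summed rows and the GC correction. Between BafA1 and MG132 those lower in BafA1 numbered 0 with no filter, median-ratio scaling or only the 2 groups. They numbered 2 with the GC correction, 3 with summed rows as well and 0 to 2 with a library left out. The counts of this paragraph were not set against the shares of all rows called in the same settings. Whether they exceed those shares was not tested.

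Reversals were among differences that had not passed, except TAP1 in MG132. With summed rows the differences were -0.0155 (HLA-C), 0.0679 (HLA-E) and 0.00102 (TAP1) in BafA1, 0.24 (HLA-E) in MG132 and 0.0396 (log2 ratio of PSMB8 to PSMB5 in BafA1). With summed rows and the GC correction they were 0.11 (HLA-E) and 0.0224 (TAP1) in BafA1, and 0.57 (HLA-E, limma adjusted p = 0.00527), 0.0662 (TAP1) and 0.0127 (TAP2) in MG132. Without the 4 libraries they were -0.11 (B2M) in BafA1, and 0.13 (HLA-E) and -0.21 (B2M) in MG132, and with the GC correction alone 0.13 (HLA-E) in MG132. With 0.1 added, the log2 ratio of PSMB9 to PSMB6 was -0.0587 in reversine. With 1 library left out, differences ranged over -0.0317 to 0.0726 (HLA-E in reversine), -0.11 to 0.34 (B2M in BafA1), -0.27 to 0.0217 (PSMB10 in BafA1) and -0.35 to 0.0316 (HLA-E in MG132), and the log2 ratios in BafA1 over -0.32 to 0.0535 (PSMB8 to PSMB5), -0.12 to 0.24 (PSMB9 to PSMB6) and -0.19 to 0.0221 (PSMB10 to PSMB7). The causes were not tested.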
